A study of Mus musculus with 20 samples.

Results

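The matrix metalloproteinases (MMP), the ADAMTS proteases and their inhibitors, the TIMP proteins, were examined in the intervertebral disc of aged mice. The members are the genes of the deposited table whose symbols are Mmp, Adamts or Timp followed by a number, with an a or b allowed after an Mmp number, and the rule found 46 of 51789 genes: 23 MMP, 19 ADAMTS and 4 TIMP genes. The rule reads symbols and no measured value, but it was chosen with earlier results of these data known. Total RNA was sequenced from the gel-like core of the disc, the nucleus pulposus (NP), and from its outer collagen ring, the annulus fibrosus (AF), of BL6 mice aged 24 months, with no genetic change named in the labels. From 18 months of age the animals had received intraperitoneal injections for 6 months, either of DMSO, the vehicle, or of MDL-800 in the same amount of DMSO, so that DMSO was common to every group. MDL-800 is a small molecule used as an activator of SIRT6, a NAD-dependent deacylase that acts on chromatin. Each tissue was taken under each treatment, which gave 4 groups with 5 libraries apiece and 20 in all, and each library is called by the number in its sample title. The labels name primary cells in one field and tissue dissected under a microscope in another, and do not say whether the libraries of a group came from separate mice. The p-values therefore measure only the spread between these libraries.

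MMPs are zinc-dependent endopeptidases that are made as inactive precursors and cut collagens, gelatins, proteoglycans and other matrix proteins outside the cell, some after release and some while anchored in the membrane. ADAMTS proteases carry thrombospondin repeats that place them in the matrix, where some cleave aggrecan and versican and others trim procollagens or act on microfibrils. TIMPs bind the active site of MMPs, and TIMP3 also inhibits aggrecan-cleaving ADAMTS enzymes. In discs these enzymes are best known for the loss of aggrecan and collagen during degeneration.

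Levels are scaled FPKM, that is fragments relative to transcript length and to the library's mapped total, divided by a factor that puts the libraries on a common scale. Because FPKM is per length, levels of different genes may be compared. Differences are log2 fold changes of scaled FPKM + 1 from limma, with the standard error (SE), and a gene is called higher or lower at an adjusted p under 0.05 over the 16383 genes tested. Depth, estimated from the steps between low values, was 12.9 to 22.0 M fragments, so that 1 fragment on a transcript of 3000 bases was worth 0.0161 to 0.0277 FPKM. The tissue labels were checked against marker genes: 10 of 11 NP markers were called higher in NP vehicle than in AF vehicle libraries and 1, Car12, lower, while 6 of 7 AF markers were called lower and Fmod was not called. The summed NP markers stood at 26430 to 33560 in the 10 NP libraries and at 2564 to 15430 in the AF libraries, with AF vehicle library 9 the highest of these. The summed AF markers did not separate the tissues, at 753.7 to 1517 in NP vehicle and 874.4 to 1439 in AF vehicle libraries. Fmod, the most abundant of them, averaged 1001 in NP vehicle and 703.4 in AF vehicle libraries. Under MDL-800, 9 of 11 NP markers were called higher in NP and 1 lower, and 5 of 7 AF markers lower. All 9 neutrophil, 7 osteoblast and osteocyte and 7 macrophage markers were called lower in NP, and none of the neutrophil or macrophage markers was at 0 in any library. In such bulk samples fewer cells of a type and less RNA per cell cannot be told apart.

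Many of the MMP genes are neighbours. On chromosome 9 of GRCm38 (mm10), 10 of the 23 lie between 7272514 and 7699585, a stretch of 427.1 kb, in the order Mmp13, Mmp12, Mmp1b, Mmp3, Mmp1a, Mmp10, Mmp8, Mmp27, Mmp20 and Mmp7. The annotation lists Mmp1a as a polymorphic pseudogene and the others as protein-coding. RefSeq's table of promoters for GRCm38.p6 held 32 of the 46 members. Its 250 bases before the annotated start were searched for the AP-1 motif TGANTCA on both strands, the RUNX motif TGTGGT on both strands, the TATA motif TATAAA on the gene's strand and the GC box GGGCGG on both strands. AP-1 is the Fos and Jun dimer, and RUNX proteins include the main transcription factors of bone and cartilage hypertrophy. Mmp13, Mmp3 and Mmp10 are printed because they are neighbours with a like arrangement of an AP-1 match upstream of a TATA match and very different levels, and Adamts1 because it was the most abundant ADAMTS gene in NP. The lines run 5′ to 3′ on the gene's strand, with AP-1, RUNX and TATA matches in capitals (the RUNX match of Mmp13 is on the other strand, as ACCACA) and no match overlapping another.
Mmp13, chr9:7272264-7272513, plus strand: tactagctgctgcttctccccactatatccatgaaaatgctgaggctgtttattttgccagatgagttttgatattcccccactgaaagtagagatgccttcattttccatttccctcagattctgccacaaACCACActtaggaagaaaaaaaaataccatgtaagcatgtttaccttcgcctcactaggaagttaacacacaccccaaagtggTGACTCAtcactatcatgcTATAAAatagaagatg
Mmp3, chr9:7445572-7445821, plus strand: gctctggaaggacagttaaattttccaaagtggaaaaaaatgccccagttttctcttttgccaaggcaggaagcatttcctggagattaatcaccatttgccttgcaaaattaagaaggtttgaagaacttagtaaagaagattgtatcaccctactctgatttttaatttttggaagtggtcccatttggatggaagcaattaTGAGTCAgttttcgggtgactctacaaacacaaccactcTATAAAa
Mmp10, chr9:7502092-7502341, plus strand: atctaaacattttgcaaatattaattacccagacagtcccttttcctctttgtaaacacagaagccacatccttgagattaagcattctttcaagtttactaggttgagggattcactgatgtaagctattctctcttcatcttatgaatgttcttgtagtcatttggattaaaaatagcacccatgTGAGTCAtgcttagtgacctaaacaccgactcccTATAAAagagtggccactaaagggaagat
Adamts1, chr16:85803114-85803363, minus strand: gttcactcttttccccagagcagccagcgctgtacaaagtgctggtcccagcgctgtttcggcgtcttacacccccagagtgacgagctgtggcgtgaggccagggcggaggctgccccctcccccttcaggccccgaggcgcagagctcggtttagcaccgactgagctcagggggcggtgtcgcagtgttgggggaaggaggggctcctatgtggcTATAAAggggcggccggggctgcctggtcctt

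The AP-1 match began 35 bases before the start in Mmp13, 46 in Mmp3 and 63 in Mmp10. In all, 7 of the 32 member promoters (21.9%) held it, against 6.9% of the 27025 promoters in the table. Those 7 were Mmp13, Mmp3, Mmp10, Mmp1a, Mmp1b, Mmp7 and Mmp20, each within the chromosome 9 cluster. The TATA match was in 9 (28.1%, against 8.1% of all promoters), and these were the same 7, Mmp21 and Adamts1. RUNX matches were in 5 (15.6%, against 14.2%), Mmp13 among them, and GC boxes in 16 (50.0%, against 32.9%). Adamts1 held 3 GC boxes, left in lower case above, which began 147, 76 and 25 bases before its start. A match describes these letters and shows no binding. Sharing the AP-1 match did not go with a shared level: in AF vehicle libraries Mmp13 averaged 79.5 scaled FPKM and Mmp3 19.1, Mmp10 averaged 0.0337 and Mmp20 0.00381, and Mmp1a, Mmp1b and Mmp7 were listed at 0. Mmp8, which lies in the same cluster and held neither an AP-1 nor a TATA match, averaged 105.2.

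**Figure D1:**
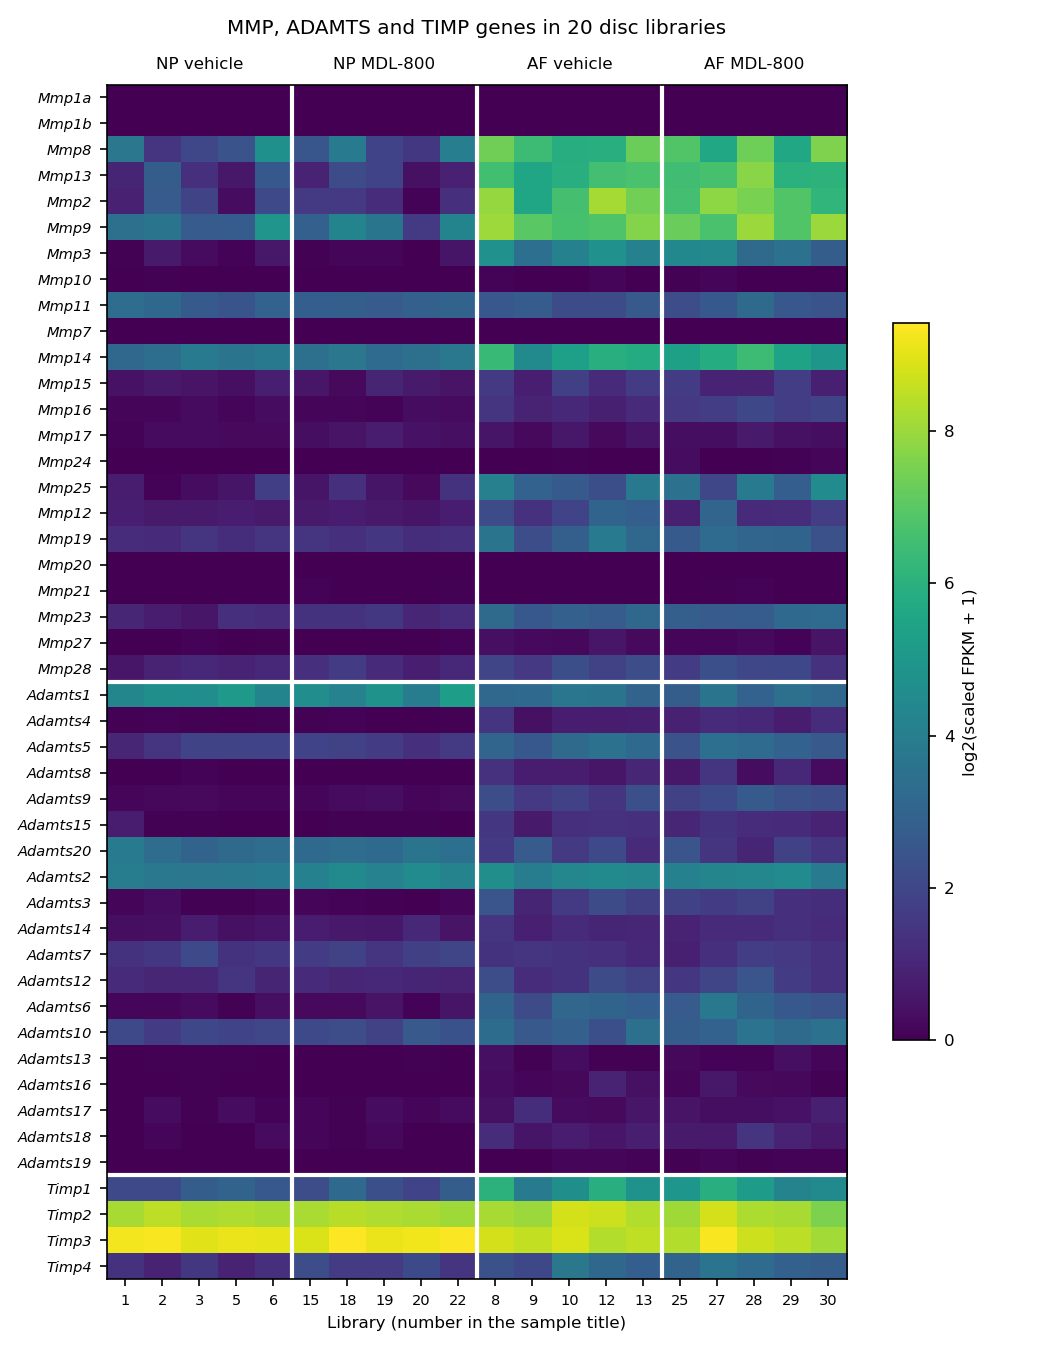
Level of each of the 46 genes (rows, by family and role) in each of the 20 libraries (columns, grouped by tissue and treatment), coloured by log2(scaled FPKM + 1). Timp2 and Timp3 are bright in every library, whereas Mmp2, Mmp8, Mmp9, Mmp13 and Mmp14 are brighter in the 10 AF libraries than in the NP libraries.

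Of the 46 genes, 30 reached 1 FPKM in at least 5 of the 20 libraries and were tested: 14 MMP, 12 ADAMTS and 4 TIMP genes. The other 16 were low everywhere. Mmp1a and Mmp1b, the mouse counterparts of human interstitial collagenase, and Mmp7, matrilysin, were listed at 0 in all 20 libraries, and Mmp20, the enamel protease, was above 0 in a single AF vehicle library at 0.0191. Mmp10, Mmp17, Mmp21, Mmp24 and Mmp27 did not reach 1 in any library, nor did Adamts13, Adamts16 and Adamts19. Adamts8, Adamts17 and Adamts18 reached it in 4, 1 and 2 libraries. Adamts4, an aggrecanase much studied in cartilage, was low in NP at 0.0322, 0.0619, 0.0405, 0 and 0.0395 in the vehicle libraries and 0.0398, 0.0526, 0, 0.0212 and 0.0412 under MDL-800. In AF it stood at 1.73, 0.338, 0.696, 0.666 and 0.725 in vehicle and at 0.826, 1.17, 1.13, 0.684 and 1.30 under MDL-800. Every AF library was thus above every NP library, and with no filter on low values Adamts4 was lower in NP by -0.78 in vehicle (adjusted p = 0.00513) and by -0.96 under MDL-800 (adjusted p = 4.3e-05). Of the 30 tested genes, 10 reached 1 FPKM in fewer than 5 NP libraries and so entered the test through AF (Mmp3, Mmp12, Mmp15, Mmp16, Mmp25, Adamts3, Adamts6, Adamts9, Adamts14 and Adamts15), and none entered through NP alone. A lower level in NP was built into the selection of those 10, so their tests are printed to describe size and error only, and the tissue counts are given over the remaining 20.

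Most of the genes expressed in both tissues were called lower in NP than in AF, whichever treatment the mice had received. In the vehicle libraries 14 of the 20 genes expressed in both tissues were called lower in NP and 3 higher, Adamts1, Adamts20 and Timp3, while Mmp11, Adamts7 and Timp2 were not called. Over all genes tested 33.9% were called lower, 21.8% higher and 55.7% in either direction, so differences between the tissues were common throughout, and the groups did not overlap for 41.0% of them. Shares over all genes, here and below, include genes that entered the test through a single tissue. The shares among genes expressed in both tissues were not computed. In the MDL-800 libraries, which share no library with the vehicle comparison, 13 were called lower and the same 3 genes higher, against 37.2% lower and 25.6% higher of all genes and 62.8% in either direction, with 49.1% not overlapping. Counting the 10 genes that entered through AF as well, 26 of 30 were called in both comparisons with the same sign. A lower NP level was built into the selection of those 10, and the share of all genes called in both was not computed. None was called with opposite signs, and Adamts2 was called in vehicle alone. As a description only, since the 10 lower it, the median log2 fold change over the 30 was -1.51 in vehicle and -1.29 under MDL-800, beside -0.08 over all genes in each. The split of calls over all genes moved with the scaling: in vehicle it was 3577 higher and 5550 lower, but 4976 and 4655 with upper-quartile scaling, 4752 and 4956 with each library's GC trend removed, and 6474 and 3925 with quantile normalization, which moved the median of all genes from -0.08 to 0.20. Under MDL-800 it was 4188 higher and 6102 lower, but 6919 and 4288 with quantile normalization. Directions given below held under those scalings except where stated.

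**Figure D2:**
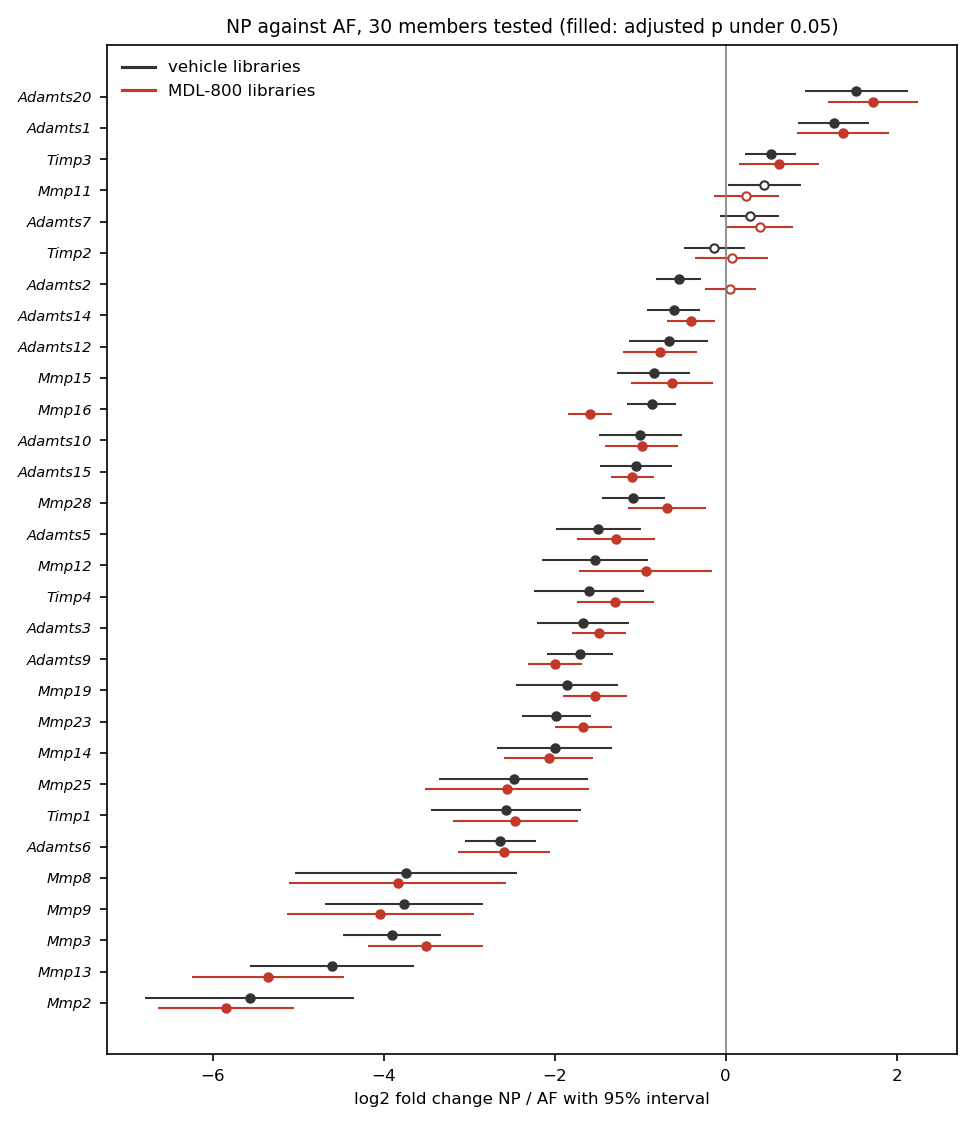
Log2 fold change of NP against AF for the 30 genes tested, ordered by the vehicle value, with 95% intervals from limma; black is the vehicle comparison, red the MDL-800 comparison, and filled points have an adjusted p under 0.05. Adamts20, Adamts1 and Timp3 lie to the right of 0 in both, and Mmp2 and Mmp13 lie farthest to the left.

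The gelatinases cut denatured collagen and basement membrane collagen. Mmp2 (chr8:92827291-92853420, positions here and below from GENCODE M21 on mm10), gelatinase A, is made by fibroblasts and other stromal cells, and stood in NP at 0.804, 5.48, 2.77, 0.256 and 3.27 in vehicle and at 2.03, 1.98, 1.28, 0.0741 and 1.49 under MDL-800. Its AF levels were 241, 46.5, 99.3, 286 and 167 in vehicle and 95.9, 226, 183, 114 and 72.4 under MDL-800. No AF library came near the NP range, and Mmp2 had the largest difference of the 30 genes, -5.56 in vehicle (SE 0.55, adjusted p = 2.18e-05) and -5.84 under MDL-800 (SE 0.36, adjusted p = 1.14e-06). Mmp9 (chr2:164940780-164955850), gelatinase B, is stored in neutrophil granules and made by osteoclasts. In NP it stood at 10.1, 11.2, 5.48, 5.61 and 29.0 in vehicle and at 6.33, 17.9, 11.5, 2.05 and 18.1 under MDL-800. The AF levels were 264, 127, 103, 111 and 202 in vehicle and 152, 104, 252, 115 and 257 under MDL-800, all above the NP range. The difference was -3.76 (SE 0.42, adjusted p = 4.13e-05) in vehicle and -4.04 (SE 0.50, adjusted p = 4.8e-05) under MDL-800.

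Collagenases make the first cut in fibrillar collagen. Mmp13, the main collagenase of mouse cartilage and bone, stood in NP at 0.986, 5.94, 1.48, 0.523 and 5.09 in vehicle and at 0.876, 3.51, 2.80, 0.328 and 0.834 under MDL-800. AF levels were 94.9, 45.9, 58.1, 95.8 and 103 in vehicle and 92.2, 102, 211, 63.2 and 67.1 under MDL-800. The groups did not overlap, and Mmp13 was lower in NP by -4.60 in vehicle (SE 0.43, adjusted p = 1.6e-05) and by -5.35 under MDL-800 (SE 0.40, adjusted p = 2.36e-06). Mmp8, the collagenase of neutrophil granules, stood in NP at 12.2, 1.69, 3.00, 4.30 and 25.3 in vehicle and at 4.74, 13.5, 2.72, 1.88 and 15.3 under MDL-800. Its AF levels were 165, 86.9, 58.0, 60.7 and 156 in vehicle and 115, 47.8, 159, 47.4 and 194 under MDL-800. Here too every AF library exceeded every NP library, with a difference of -3.74 in vehicle (SE 0.59, adjusted p = 0.00033) and -3.83 under MDL-800 (SE 0.58, adjusted p = 0.000183).

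Among the stromelysins Mmp3, which cuts proteoglycans and activates other MMP precursors, was nearly absent from NP. It stood there at 0.0322, 0.619, 0.223, 0.0592 and 0.523 in vehicle and at 0.0299, 0.105, 0.101, 0 and 0.453 under MDL-800. AF libraries held it at 26.3, 9.74, 16.8, 26.4 and 16.5 in vehicle and at 19.9, 20.9, 8.44, 10.7 and 5.82 under MDL-800. It reached 1 FPKM in no NP library, so a difference was built into its entry, and it came to -3.91 in vehicle (SE 0.26, adjusted p = 3.98e-06) and -3.51 under MDL-800 (SE 0.31, adjusted p = 5.24e-06). Mmp11, a stromelysin activated inside the cell by furin, went the other way in level without being called: it averaged 6.79 ± 1.97 in NP and 4.60 ± 0.937 in AF vehicle libraries (SD, n = 5), a difference of 0.45 (SE 0.19, adjusted p = 0.0665). It was called higher with quantile normalization, upper-quartile scaling or GC correction, with all 4 groups in the fit, and without NP vehicle library 5. Under MDL-800 it averaged 6.22 ± 0.553 in NP and 5.29 ± 1.89 in AF (SD, n = 5) and was not called either, with 0.24 (SE 0.17, adjusted p = 0.248), except in 3 of 22 alternatives, quantile normalization, upper-quartile scaling and leaving out AF library 28.

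**Figure D3:**
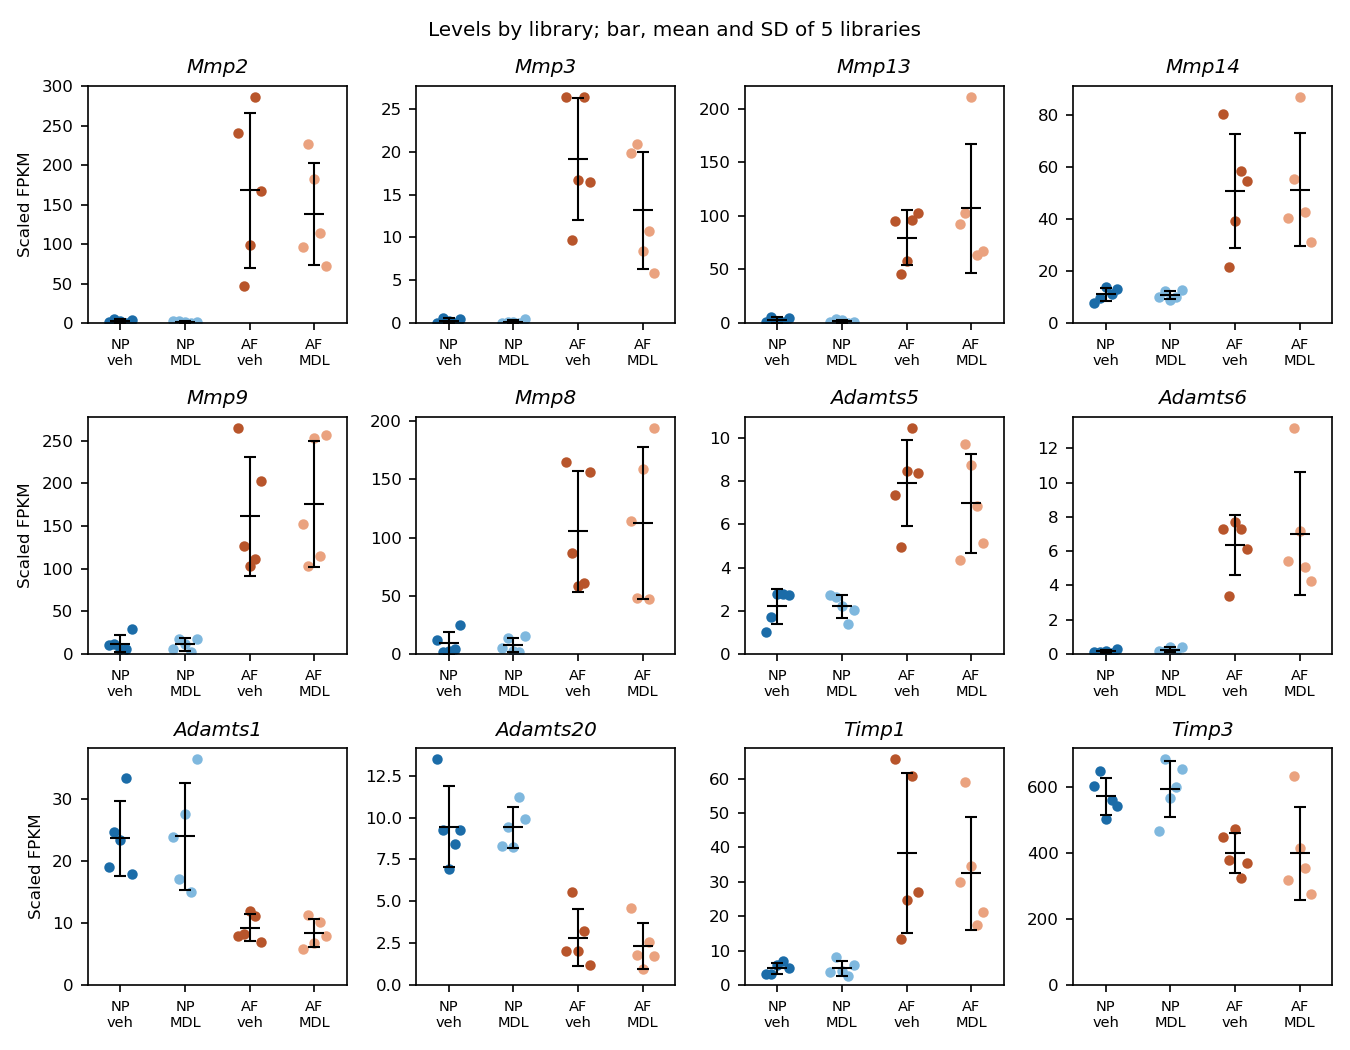
Scaled FPKM of 12 genes in each library (points), with the mean and SD of the 5 libraries of a group (black bars), on linear axes from 0. Points of NP and AF are apart for Mmp2, Mmp3, Mmp13, Mmp14, Mmp9, Mmp8 and Adamts6, with AF higher, and for Adamts1 and Adamts20, with NP higher, whereas Timp3 overlaps under MDL-800.

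Membrane-type MMPs act at the cell surface. Mmp14 (chr14:54431612-54445364), which activates the Mmp2 precursor, stood in NP at 7.81, 9.51, 13.8, 11.2 and 13.1 in vehicle and at 10.1, 12.4, 8.74, 10.1 and 12.6 under MDL-800. AF values were 80.1, 21.4, 39.1, 58.4 and 54.5 in vehicle and 40.2, 55.2, 86.7, 42.8 and 31.0 under MDL-800. NP was lower by -2.0 (SE 0.30, adjusted p = 0.000262) and -2.07 (SE 0.24, adjusted p = 2.86e-05). Mmp16 (chr4:17852893-18119145), another activator of the Mmp2 precursor, stood in NP at 0.0965, 0.124, 0.202, 0.128 and 0.227 in vehicle and at 0.0995, 0.105, 0.0706, 0.254 and 0.196 under MDL-800. AF held 1.69, 0.878, 1.05, 0.790 and 1.22 in vehicle and 1.92, 2.25, 3.08, 2.27 and 2.79 under MDL-800, above NP throughout. The difference was -0.86 in vehicle (SE 0.13, adjusted p = 0.000254), a call that ended with quantile normalization (-0.28), and -1.59 under MDL-800 (SE 0.12, adjusted p = 2.25e-06).
Mmp25, also called leukolysin for its presence in leukocytes, stood in NP vehicle libraries at 0.665, 0.0619, 0.243, 0.434 and 2.35 and under MDL-800 at 0.438, 1.45, 0.444, 0.169 and 1.61. Across AF it reached 16.1, 6.76, 5.42, 3.80 and 13.0 in vehicle and 10.6, 2.97, 13.6, 6.05 and 22.2 under MDL-800. NP was lower by -2.48 (SE 0.40, adjusted p = 0.000362) and -2.56 (SE 0.44, adjusted p = 0.000443). Mmp15 was lower by -0.84 in vehicle (SE 0.20, adjusted p = 0.00374) and by -0.63 under MDL-800 (SE 0.22, adjusted p = 0.0267), but neither call was kept with quantile normalization (-0.29 and -0.07). The MDL-800 call also ended with no filter on low values and without NP library 18 or 22 or AF library 25 or 29. Mmp17 and Mmp24 were not tested, with means of at most 0.411 and 0.0733 in any group.

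The remaining MMPs tested were of moderate level in AF. Mmp19, which acts on basement membranes, stood in NP between 1.26 and 1.73 in vehicle and between 1.35 and 1.82 under MDL-800. Its AF levels were 11.5, 3.69, 6.18, 13.3 and 8.19 in vehicle and 5.31, 8.80, 7.35, 7.16 and 4.07 under MDL-800. NP was lower by -1.86 (SE 0.27, adjusted p = 0.000196) and -1.53 (SE 0.17, adjusted p = 2.57e-05). Mmp23 stood in NP at 1.03, 0.640, 0.496, 1.42 and 1.26 in vehicle and at 1.61, 1.61, 1.88, 1.04 and 1.27 under MDL-800. Its AF levels ran from 5.06 to 8.61 in vehicle and from 5.48 to 8.80 under MDL-800, clear of NP, with differences of -1.98 (SE 0.18, adjusted p = 1.38e-05) and -1.66 (SE 0.15, adjusted p = 7.17e-06). Mmp12, the macrophage elastase, overlaps Mmp1b on the other strand, and whether the counting used strand is not given in the sources used here, though Mmp1b was listed at 0. It stood in NP between 0.587 and 0.718 in vehicle and between 0.434 and 0.669 under MDL-800. AF held 3.41, 1.54, 2.72, 7.18 and 6.03 in vehicle and 0.767, 7.30, 1.21, 1.28 and 2.31 under MDL-800. It was lower in NP by -1.53 in vehicle (SE 0.28, adjusted p = 0.000885) and by -0.94 under MDL-800 (SE 0.35, adjusted p = 0.038). The second call was lost in 10 of 22 alternatives, among them leaving out NP library 15, 18, 19, 20 or 22 or AF library 30. Mmp28 was lower by -1.08 in vehicle (SE 0.17, adjusted p = 0.000278) and by -0.69 under MDL-800 (SE 0.21, adjusted p = 0.014), the latter not called with quantile normalization.

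Neutrophil markers differed widely among NP libraries, as did the MMPs known from leukocytes. The 9 markers summed to 1615, 204, 310.6, 589.3 and 3200 in NP vehicle libraries 1, 2, 3, 5 and 6. The highest levels of Mmp8, Mmp9 and Mmp25 in that group were all in library 6. Under MDL-800 the markers summed to 654.8, 1752, 405.8, 202.2 and 1701 in libraries 15, 18, 19, 20 and 22, and the lowest levels of the same genes were all in library 20. The order was not the same throughout: Mmp9 was second highest among the vehicle libraries in library 2, at 11.2 with the lowest marker sum, and stood at 11.5 in MDL-800 library 19 against 6.33 in library 15. In AF the sums ran from 7593 to 19680 in vehicle and from 6211 to 33940 under MDL-800. The part of neutrophil RNA in these tissue differences was not tested. Without NP vehicle library 6 the calls of Mmp8, Mmp9 and Mmp25 remained. That library held their highest NP vehicle levels, so leaving it out could only lower the NP mean and decides nothing here. The osteoblast and osteocyte markers, whose cells also make Mmp2, Mmp13 and Mmp14, summed in NP to 10.1 to 93.8 with vehicle and 1.57 to 169 with MDL-800, against 249 to 1153 and 846 to 2070 in AF, with Dmp1 at 0 in 1 library of each NP group and Sost in 1 NP vehicle library. The macrophage markers summed in NP to 42.5 to 97.1 with vehicle and 47.1 to 78.2 with MDL-800 and to 265 to 531 and 282 to 476 in AF. Osteoclast markers, whose cells make Mmp9, were called lower in NP in 4 of 4 tested of 6, and summed to 4.12 to 30.4 with vehicle and 1.47 to 11.2 with MDL-800 in NP against 108 to 300.0 and 122 to 538 in AF, with Calcr at 0 in 4 and 3 NP libraries and Dcstamp in 1 under MDL-800. The 3 markers of hypertrophic cartilage, where Mmp13 is a known product, were all called lower, at 0.256 to 7.66 and 0.455 to 5.08 in NP against 27.7 to 147 and 38.5 to 200.4 in AF, with Ihh at 0 in 1 and 2 NP libraries and Panx3 in 1 with vehicle. So were all 5 endothelial markers, at 1.56 to 4.23 and 0.751 to 5.25 against 40.8 to 86.9 and 42.8 to 77.9, and all 6 muscle markers, at 5.33 to 789 and 5.89 to 165 against 646 to 4200 and 508 to 6155. The 6 red blood cell markers and the 4 nerve markers tested of 5 were called lower as well. These calls held in both treatments. The parts of all these cell types in the tissue differences were not tested.

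ADAMTS proteases that cut aggrecan and versican went in both directions. Adamts1, a versicanase and weak aggrecanase, stood in NP at 19.1, 24.7, 23.4, 33.3 and 18.0 in vehicle and at 23.8, 17.0, 27.5, 15.0 and 36.4 under MDL-800. The AF levels were 7.83, 8.30, 12.0, 11.2 and 6.92 in vehicle and 5.79, 11.3, 6.82, 10.2 and 7.94 under MDL-800. Each NP library exceeded each AF library, and the difference was 1.26 in vehicle (SE 0.19, adjusted p = 0.000249) and 1.38 under MDL-800 (SE 0.24, adjusted p = 0.000587). Adamts20 (chr15:94270163-94465418), known for versican cleavage in skin pigmentation and palate development, stood in NP at 13.5, 9.25, 6.91, 8.43 and 9.24 in vehicle and at 8.28, 9.43, 8.22, 11.2 and 9.93 under MDL-800. AF held 2.04, 5.57, 2.03, 3.25 and 1.22 in vehicle and 4.59, 1.77, 0.978, 2.58 and 1.73 under MDL-800. It was higher in NP by 1.53 (SE 0.27, adjusted p = 0.000762) and 1.73 (SE 0.24, adjusted p = 0.000105). Its highest AF values were in vehicle library 9 and MDL-800 library 25, which also held the highest summed NP markers of their groups, 15430 and 7728. The part of NP tissue in those AF values was not tested. Adamts1 and Adamts20 were called higher in each of the 22 alternatives of both comparisons.

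Adamts5 (chr16:85856173-85901828), the main aggrecanase of mouse cartilage and the neighbour of Adamts1 (chr16:85793827-85803113), was lower in NP. It stood there at 1.02, 1.71, 2.78, 2.78 and 2.74 in vehicle and at 2.75, 2.64, 2.23, 1.40 and 2.02 under MDL-800. AF held 7.38, 4.96, 8.47, 10.5 and 8.38 in vehicle and 4.37, 9.73, 8.76, 6.86 and 5.16 under MDL-800, above every NP library. The difference was -1.49 (SE 0.22, adjusted p = 0.000248) in vehicle and -1.28 (SE 0.21, adjusted p = 0.000304) under MDL-800. Adamts9, a versicanase, stood in NP at 0.0888 to 0.182 in vehicle and 0.116 to 0.272 under MDL-800. In AF it stood at 3.71, 1.96, 2.60, 1.72 and 3.87 in vehicle and at 2.56, 3.39, 5.29, 3.99 and 3.65 under MDL-800. It was lower in NP by -1.70 (SE 0.17, adjusted p = 2.5e-05) and -2.0 (SE 0.15, adjusted p = 2.11e-06). Adamts15, another proteoglycan-cleaving member, was lower by -1.05 (SE 0.19, adjusted p = 0.000823), with NP vehicle library 1 at 0.632 and overlapping AF, and -1.09 (SE 0.11, adjusted p = 1.46e-05). Adamts8 and Adamts18 were not tested and averaged 0.884 and 0.720 in AF vehicle against 0.0163 and 0.0684 in NP vehicle libraries.

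The procollagen N-proteinases remove the amino-terminal propeptide so that fibrils can form. Adamts2 (chr11:50602084-50807573) was the one of them at high level in both tissues, 14.4, 12.6, 12.3, 12.8 and 13.4 in NP vehicle and 23.9, 15.0, 19.5, 21.1 and 19.5 in AF vehicle libraries. These groups did not overlap, and NP was lower by -0.55 (SE 0.12, adjusted p = 0.00253). Under MDL-800 they did overlap, with 16.5, 21.1, 17.0, 22.1 and 17.4 in NP and 16.6, 18.4, 19.8, 22.3 and 13.8 in AF, a difference of 0.06 (SE 0.13, adjusted p = 0.736) whose sign changed with the processing. Adamts3 and Adamts14, the other members of the trio, were lower in NP by -1.67 (SE 0.24, adjusted p = 0.000204) and -0.61 (SE 0.14, adjusted p = 0.00361) in vehicle. Under MDL-800 they were lower by -1.48 (SE 0.14, adjusted p = 1.03e-05) and -0.40 (SE 0.13, adjusted p = 0.0172). Adamts14 was not called in either comparison with quantile normalization (-0.03 and 0.16), nor under MDL-800 with upper-quartile scaling.

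Adamts6 and Adamts10 are associated with fibrillin microfibrils. Adamts6 stood in NP at 0.0965, 0.113, 0.202, 0.0493 and 0.306 in vehicle and at 0.169, 0.168, 0.424, 0.0741 and 0.432 under MDL-800. AF held 7.27, 3.41, 7.73, 7.29 and 6.10 in vehicle and 5.44, 13.2, 7.15, 5.06 and 4.26 under MDL-800, far from the NP range. It too entered the test through AF, and its differences were -2.64 (SE 0.19, adjusted p = 4.79e-06) and -2.59 (SE 0.24, adjusted p = 8.26e-06). Adamts10 was expressed in both tissues and lower in NP by -1.0 (SE 0.22, adjusted p = 0.00275) and -0.98 (SE 0.19, adjusted p = 0.00107). Of the pair that cleaves the cartilage protein COMP, Adamts12 was lower by -0.67 (SE 0.21, adjusted p = 0.0194) and -0.77 (SE 0.20, adjusted p = 0.00536), calls that ended with quantile normalization. Adamts7 averaged 2.06 ± 0.683 in NP and 1.48 ± 0.246 in AF vehicle libraries (SD, n = 5) and was not called, with 0.28 (SE 0.16, adjusted p = 0.145), but was called higher with quantile normalization, upper-quartile scaling or GC correction. Under MDL-800 NP averaged 2.37 ± 0.439 and AF 1.60 ± 0.590 (SD, n = 5), with a difference of 0.40 (SE 0.17, adjusted p = 0.0688) that was called in 5 of 22 alternatives: quantile normalization, upper-quartile scaling, all 4 groups in the fit, and without NP library 19 or AF library 28.

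The inhibitors split by member. Timp3 (chr10:86300372-86349506), which is bound to the matrix, was the most abundant of the 46 genes in every group. It stood at 600.6, 648, 503, 559 and 540.0 in NP vehicle libraries and at 467, 682, 565, 599 and 654 under MDL-800. AF held 446, 378, 473, 324 and 369 in vehicle and 317, 633, 415, 353 and 276 under MDL-800. The vehicle groups did not overlap, and NP was higher by 0.53 (SE 0.14, adjusted p = 0.00676). Under MDL-800 AF library 27 lay within the NP range, and the difference of 0.62 (SE 0.21, adjusted p = 0.0239) was not called without NP library 18 or 22 or AF library 25 or 30, or with no filter on low values. Timp1, an inducible secreted inhibitor, stood in NP at 3.24, 3.18, 5.92, 6.91 and 5.00 in vehicle and at 3.68, 8.27, 3.95, 2.74 and 5.81 under MDL-800. Its AF levels were 65.6, 13.5, 24.8, 60.8 and 27.1 in vehicle and 29.9, 59.1, 34.6, 17.6 and 21.2 under MDL-800. It was lower in NP by -2.57 (SE 0.40, adjusted p = 0.000293) and -2.46 (SE 0.33, adjusted p = 8.62e-05), without overlap.
Timp2, which takes part in Mmp2 activation by Mmp14 as well as in inhibition, stood in NP between 291 and 356 in vehicle and between 266 and 336 under MDL-800. In AF it stood at 292, 256, 448, 415 and 318 in vehicle and at 268, 443, 304, 287 and 186 under MDL-800. It was not called, with -0.13 (SE 0.16, adjusted p = 0.517, 95% interval -0.49 to 0.22) and 0.07 (SE 0.19, adjusted p = 0.77), and its sign depended on the scaling. Timp4, the least abundant inhibitor, stood in NP at 1.63, 0.918, 1.87, 0.878 and 1.49 in vehicle and at 3.73, 2.09, 2.21, 3.33 and 1.71 under MDL-800. AF held 4.06, 3.08, 12.2, 7.74 and 6.11 in vehicle and 7.04, 11.3, 8.86, 6.31 and 5.80 under MDL-800. It was lower in NP by -1.59 (SE 0.29, adjusted p = 0.000874) and -1.29 (SE 0.20, adjusted p = 0.000257).

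Summed levels show how differently the tissues are composed. The 23 MMP genes together came in NP to 50.6 ± 23.7 scaled FPKM with vehicle and 45.9 ± 16.8 with MDL-800, and in AF to 624 ± 236 and 638 ± 193 (SD, n = 5 each). The ADAMTS genes came to 55.7 ± 5.02, 63.0 ± 6.92, 68.6 ± 10.0 and 67.2 ± 10.9 in the same order, and the TIMP genes to 886 ± 75.9, 903 ± 91.7, 789 ± 115 and 737 ± 249. MMP sums thus did not overlap between tissues while ADAMTS and TIMP sums overlapped. The ratio of MMP to TIMP transcripts ran in NP from 0.0362 to 0.109 with vehicle and from 0.0285 to 0.0678 with MDL-800, and in AF from 0.424 to 1.14 and from 0.518 to 1.38. It is a ratio of RNA levels and not of active protein, and no test was made of it. The highest NP ratio, 0.109, was that of vehicle library 6, which also held the highest sum of neutrophil markers among NP libraries, 3200. The part of neutrophil RNA in the sums and the ratio was not tested.

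**Figure D4:**
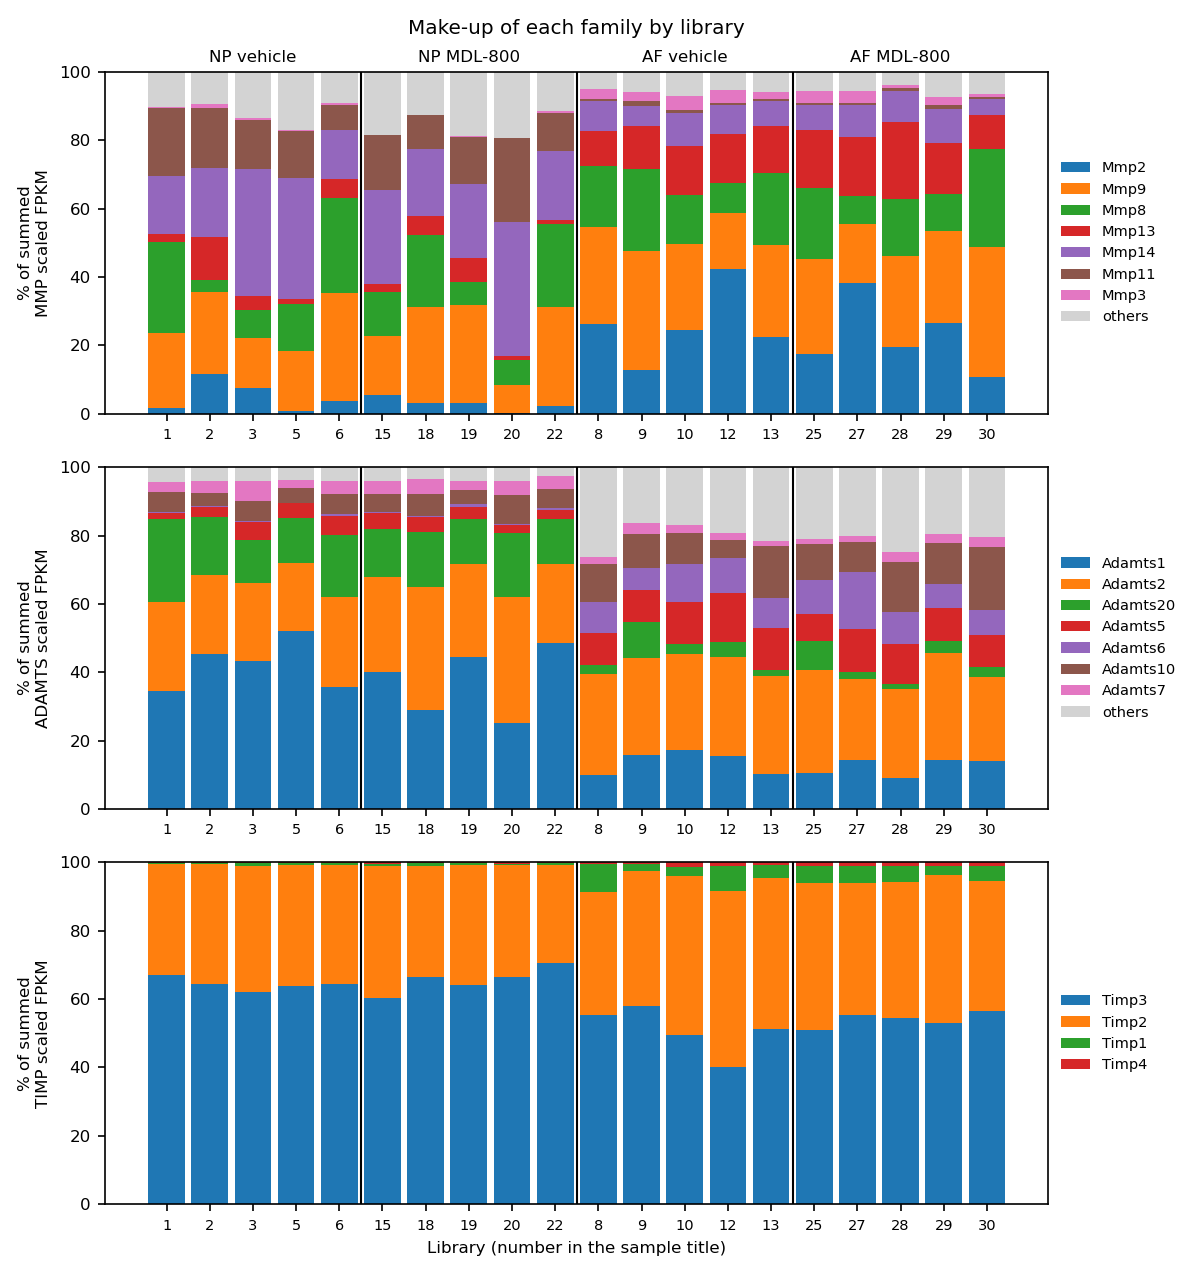
Make-up of the MMP, ADAMTS and TIMP sums in each library as stacked bars, in percent of the family's summed scaled FPKM, with libraries grouped by tissue and treatment. Mmp14 and Mmp11 take larger parts of the MMP bar, and Adamts1 and Adamts20 of the ADAMTS bar, in NP, whereas Timp3 and Timp2 fill most of the TIMP bar in every library.

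Within the MMP sum Mmp14 made up 24.8% ± 10.7 in NP with vehicle and 25.6% ± 8.20 with MDL-800, but 8.02% ± 1.45 and 8.08% ± 2.18 in AF (SD, n = 5). Mmp11 made up 14.6% ± 4.69 and 15.1% ± 5.85 in NP and 0.840% ± 0.422 and 0.842% ± 0.202 in AF. Mmp2 took the reverse course, with 5.05% ± 4.49 and 2.89% ± 1.88 in NP and 25.6% ± 10.6 and 22.5% ± 10.4 in AF. Mmp9 held 22.0% to 27.3% and Mmp8 14.5% to 17.2% on average in each of the 4 groups. Of the ADAMTS sum Adamts1 made up 42.1% ± 7.27 and 37.4% ± 9.98 in NP and 13.7% ± 3.46 and 12.5% ± 2.50 in AF, and Adamts20 17.1% ± 4.68 and 15.0% ± 2.38 against 4.47% ± 3.55 and 3.73% ± 2.74. Timp3 made up 64.3% ± 1.79 and 65.6% ± 3.70 of the TIMP sum in NP and 50.8% ± 6.87 and 54.1% ± 2.08 in AF, and Timp1 0.558% ± 0.213 and 0.532% ± 0.191 against 4.82% ± 2.82 and 4.30% ± 0.972.

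Other genes of extracellular proteolysis were read from lists of pathway members. Their calls stand beside the 33.9% of all genes called lower and the 21.8% called higher in NP vehicle libraries, and 0 to 5 tested genes of each list entered through AF, which builds a lower NP level into their selection. Of 6 tested genes of the plasmin system, which activates MMP precursors, 5 were called lower in NP vehicle libraries and none higher, or 3 and 0 of the 4 at 1 FPKM in at least 5 libraries of each tissue. They included the protease inhibitor Serpine2 at -5.35 (SE 0.43), urokinase, Plau, which entered through AF, at -2.63 (SE 0.25) and tissue plasminogen activator, Plat, at -1.72 (SE 0.29). Of 4 proprotein convertases, which cut the precursors of membrane-type MMPs and ADAMTS proteases, 3 were called lower, Pcsk6 at -4.55 (SE 0.36), Pcsk5 at -2.44 (SE 0.37) and Pcsk7 at -0.36 (SE 0.14), a call that ended under each of the other scalings named above, while Furin was at -0.05 and not called, which leaves 2 and 0 of 3 without Pcsk5. Pcsk5 entered through AF. Among 5 other inhibitors and clearance receptors 3 were lower and 2 higher, or 1 and 2 of the 3 measured in both tissues, with the membrane inhibitor Reck at -1.34 (SE 0.27), the plasma protease inhibitor A2m at -1.08 (SE 0.21) and Bsg, known as an inducer of MMPs, at 1.23 (SE 0.21). Of this list A2m and Tfpi2 entered through AF. ADAM and ADAMTS-like genes had 8 of 13 lower and 2 higher, or 3 and 2 of the 8 measured in both tissues, with Adamtsl3 at -2.86 (SE 0.27), Adam19 at -2.78 (SE 0.27) and Adam8 at -2.70 (SE 0.38). Adamtsl3 and Adam19 entered through AF, so a lower NP level was built into their selection. Of 7 cathepsins and HtrA proteases 6 were lower and 1 higher, none of which entered through AF, with the lysosomal Ctss at -4.54 (SE 0.45), the osteoclast protease Ctsk at -1.97 (SE 0.24) and Htra1, a serine protease of disc matrix, at 1.71 (SE 0.28). Matrix substrates were lower in 7 of 10 and higher in 1, or 6 and 1 of the 9 measured in both tissues, with decorin, Dcn, at -6.57 (SE 0.66), Col3a1 at -6.18 (SE 0.83) and Comp at -6.07 (SE 0.52), and the 1 higher was aggrecan, Acan, at 1.92 (SE 0.29). Of the other called list genes, Ctsl was not called with upper-quartile scaling, nor Htra3 with GC correction, and no list gene called in vehicle turned its sign under those scalings. Median differences of the 6 lists, which the genes that entered through AF lower, were -1.61, -1.40, -0.98, -1.03, -0.70 and -4.57, beside -0.08 over all genes tested. In the MDL-800 libraries the counts lower and higher were 5 and 0, 3 and 0, 3 and 2, 8 and 3, 4 and 1, and 7 and 1, beside 37.2% lower and 25.6% higher of all genes. Over the genes measured in both tissues they were 3 and 0, 2 and 0, 1 and 2, 3 and 3, 4 and 1, and 6 and 1. There the calls of Pcsk7 and Tfpi2 ended with quantile normalization and that of Ctsb with upper-quartile scaling or GC correction.

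Treatment with MDL-800 gave no called change in any of the 30 genes in NP. Over all genes 0.250% were called, 38 higher and 3 lower. At an unadjusted p under 0.05, limma gave 3 of the 30, Adamts2, Timp4 and Mmp23, beside 14.1% of all genes. Adamts2 had the smallest p: it stood at 12.3 to 14.4 in vehicle and at 16.5 to 22.1 under MDL-800, as listed above, and the groups did not overlap, as for 4.50% of all genes. Its difference was 0.48 (SE 0.10, adjusted p = 0.0698), and over 22 alternatives the adjusted p ran from 0.061 to 0.189. Timp4 averaged 1.36 ± 0.441 with vehicle and 2.62 ± 0.869 with MDL-800 (SD, n = 5), with 4 of the 5 MDL-800 libraries above the highest vehicle library, and differed by 0.61 (SE 0.19, adjusted p = 0.172). Mmp23 averaged 0.970 ± 0.396 and 1.48 ± 0.329, with overlap, and differed by 0.35 (SE 0.16, adjusted p = 0.351). Adamts14, next in order, stood at 0.289, 0.309, 0.627, 0.335 and 0.434 in vehicle and at 0.697, 0.547, 0.535, 1.09 and 0.422 under MDL-800, with 0.24 (SE 0.12, adjusted p = 0.405), and its sign changed with GC correction.

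The enzymes most studied in disc degeneration were not called in NP, and their intervals were of unequal width. Mmp13 differed by -0.40 (SE 0.49, 95% interval -1.48 to 0.68), Mmp2 by -0.42 (SE 0.45, -1.42 to 0.58) and Mmp3 by -0.17 (SE 0.15, -0.51 to 0.17). For Mmp13 and Mmp2 the intervals admit changes of more than 1 on the log2 scale in the lower direction, so the data do not show that their levels were alike. Mmp3 averaged only 0.291 with vehicle and 0.138 with MDL-800 in NP, where adding 1 before the log understates changes. Its narrower interval therefore does not show alike levels either. Over 22 alternatives its difference ran from -0.672 to -0.084. The list medians in NP lay between -0.04 and 0.20 beside -0.03 over all genes, and none of the 45 list genes tested was called. At an unadjusted p under 0.05, limma gave 1 gene of the plasmin system, 1 of the inhibitors and clearance receptors, 3 ADAM and ADAMTS-like genes and 1 matrix substrate.

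**Figure D5:**
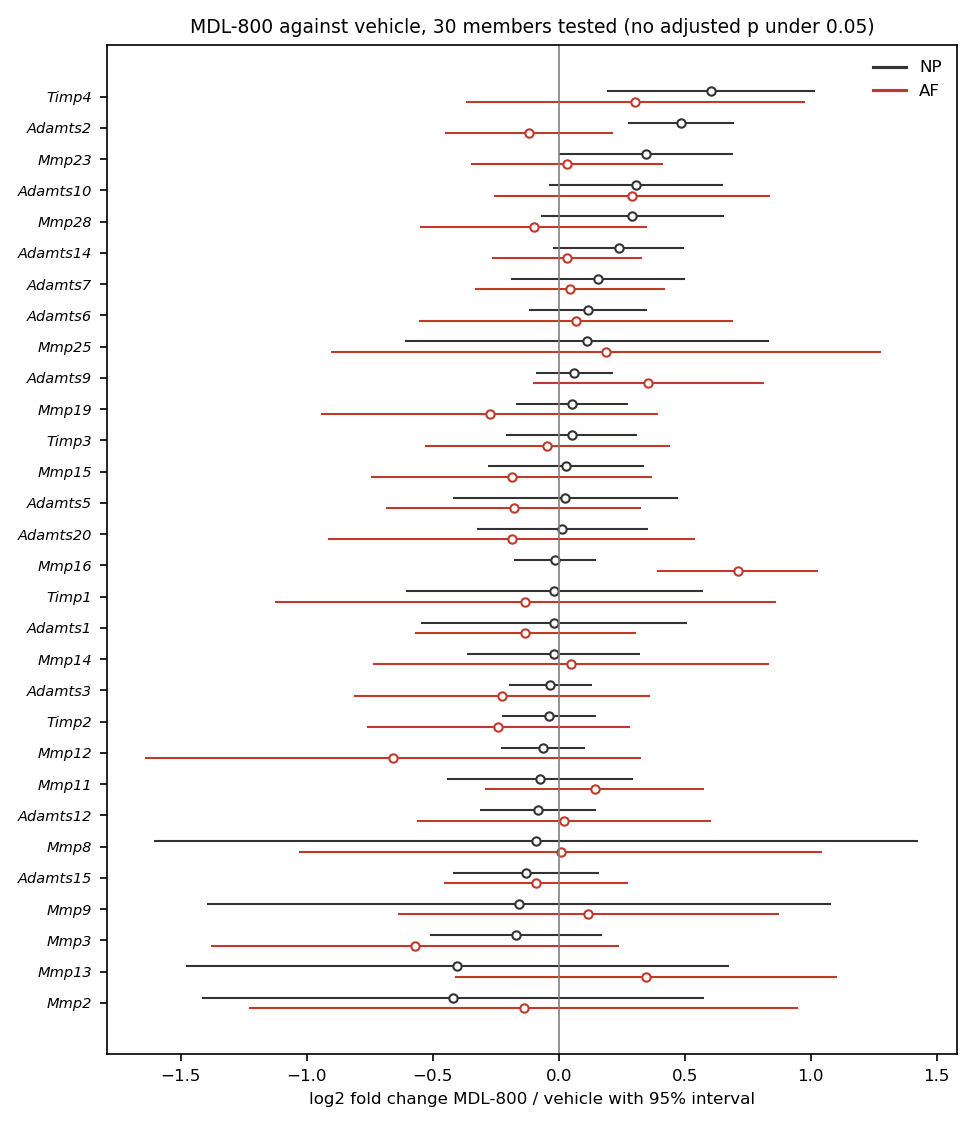
Log2 fold change of MDL-800 against vehicle for the 30 genes tested, with 95% intervals from limma; black is NP, red is AF, and open points have an adjusted p of 0.05 or more. All points are open, and the intervals of Mmp8, Mmp9, Mmp2 and Mmp13 are among the widest in NP. The intervals of Adamts2, Timp4 and Mmp23 in NP and of Mmp16 in AF lie clear of 0.

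In AF no gene at all was called between MDL-800 and vehicle, 0% of those tested. At an unadjusted p under 0.05, limma gave 1 of the 30, Mmp16, beside 1.65% of all genes. Mmp16 was at 0.790 to 1.69 in vehicle and at 1.92 to 3.08 under MDL-800, as given above, without overlap, as for 0.226% of all genes. Its difference was 0.71 (SE 0.14, adjusted p = 1), and over 20 alternatives the adjusted p ran from 0.121, with all 4 groups in the fit, to 1. Beside it, the osteoblast and osteocyte markers summed to 249 to 1153 in vehicle and 846 to 2070 under MDL-800, with 0 of 7 called and 2 of 7, Bglap and Bglap2, at an unadjusted p under 0.05. The 3 hypertrophic cartilage markers summed to 27.7 to 147 in vehicle and 38.5 to 200.4 under MDL-800. Of these 0 were called and 2 had an unadjusted limma p under 0.05. Their median log2 fold change was 1.44, beside 0.76 for the bone markers and 0.01 over all genes. Medians of the other cell type lists ran from -0.85 for the nerve markers to 0.19 for the red blood cell markers. The parts of bone cells, hypertrophic cartilage and the other cell types in the Mmp16 difference were not tested. Next in order of p-value came Adamts9 at 0.36 (SE 0.21), Mmp3 at -0.57 (SE 0.37) and Mmp12 at -0.66 (SE 0.44), each at an adjusted p of 1. Mmp13 differed by 0.35 (SE 0.34, 95% interval -0.41 to 1.10), Adamts5 by -0.18 (SE 0.23, -0.69 to 0.33) and Timp4 by 0.30 (SE 0.30, -0.37 to 0.98). AF MDL-800 library 28 alone held Mmp13 at 211, against 63.2 to 102 in the other libraries of its group.

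The treatment effect in NP was set against that in AF in a fit of all 4 groups, and no gene was called, 0% of those tested. At an unadjusted p under 0.05, limma gave 2 of the 30, beside 3.73% of all genes. Mmp16 stood in NP at only 0.0965 to 0.227 with vehicle and 0.0706 to 0.254 with MDL-800. Adding 1 before the log leaves little room for a change there, so its contrast cannot show that the treatment effects differ. Mmp16 differed by -0.72 (SE 0.16), with an effect of -0.01 in NP and 0.71 in AF, and Adamts2 by 0.60 (SE 0.18), with 0.48 in NP and -0.12 in AF. Both had an adjusted p of 1. Mmp13 differed by -0.75 (SE 0.63, 95% interval -2.06 to 0.56, adjusted p = 1).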

How the data were processed

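Per the labels' protocols, total RNA libraries were stranded and depleted of ribosomal RNA, from 50 ng of RNA with 14 PCR cycles. The authors deposited FPKM values per gene and library. The submitters' processing notes name STAR 2.7.11b and the genome build mm10, and the program that counted reads is not given in the sources used here. FPKM holds no counts, so no count model was used, and how reads shared by near-identical genes such as Mmp1a and Mmp1b were split is not known. Values were divided by a median-ratio factor (0.933 to 1.06), computed from the 11308 genes that reached 1 FPKM in every one of the 20 libraries. The 16383 genes reaching 1 FPKM in 5 libraries were tested on log2(scaled FPKM + 1), a scale that understates changes of low genes. The tests used limma 3.58.1 in R 4.3.3 (eBayes with trend, two-sided, Benjamini-Hochberg adjustment over all genes, threshold 0.05), with only the compared groups in the fit and all 4 for the difference between tissues. The limma script was tested on simulated data. Depth was estimated from the low FPKM of genes with a single exon and 400 to 1200 bases, of which 79.7% to 84.3% fell on whole steps (within 0.15 of a step). Gene positions are from GENCODE M21. Library values were given for 13 preset members and for those called with the largest differences without overlap, or, with no call, those with the 4 smallest p-values; of each list up to 3 called genes were named, and Furin, Acan, Ctsl, Ctsb, Htra3, Tfpi2, Bglap and Bglap2 were named after their values were seen. Members and lists were chosen with earlier results of these data known. Alternatives covered the pseudocount, filter, scaling, GC correction, weights, groups in the fit and each library left out. The data columns of NP and AF share some library numbers, whose meaning the labels do not state.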

Additional observations from a re-analysis of the deposited data

Results flagged for a closer look

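In 23 genes and 4 groups of 5 libraries, 92 sets of values were searched for a single library whose gap to its nearest neighbour exceeded 0.71 of the whole range. For 5 independent values from a normal distribution this is met in about 1 in 20 sets. That rate need not hold here, since the levels were not logged and the genes share the same libraries. In these data 6 were found. In NP vehicle library 6, Mmp9 stood at 29.03, against 5.48 to 11.2 in the other libraries of the group, and Mmp25 at 2.35, against 0.0619 to 0.665. That library also held the highest sum of neutrophil markers among NP libraries, 3200. Mmp3 was at 0.4531 in NP MDL-800 library 22, against 0 to 0.105. In AF, Mmp13 was at 210.5 in MDL-800 library 28 against 63.2 to 102, Mmp12 at 7.302 in MDL-800 library 27 against 0.767 to 2.31, and Adamts4 at 1.726 in vehicle library 8 against 0.338 to 0.725. The parts of cell make-up and dissection in these values were not tested.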

How the results depend on the processing

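No gene of the 30 was called in a treatment comparison or in the difference between tissues under any alternative run, 21 in AF, 22 in NP and 31 for the difference. Of the 20 genes measured in both tissues, 16 in vehicle and 13 under MDL-800 were called between tissues in every alternative. The share of all genes called in every alternative was not computed. In the main fit 55.7% of all genes were called in vehicle and 62.8% under MDL-800, so these counts are not shown to be particular to the 20. The count called higher in NP rose from 3 to 5 in vehicle with quantile normalization, upper-quartile scaling or GC correction, and to 5 under MDL-800 with quantile normalization or upper-quartile scaling, through Mmp11 and Adamts7. Leaving out single libraries gave, of those 20, 3 to 4 higher and 14 lower in vehicle, beside 19.1% to 21.6% and 31.5% to 34.2% of all genes. Under MDL-800 it gave 2 to 5 higher (5 without AF library 28) and 13 lower, beside 23.1% to 25.4% and 35.1% to 37.4%. Treatment comparisons stayed at 0. With the 10 genes that entered through AF, 24 and 21 to 23 were lower. Signs turned in some alternative for 15 treatment values in AF, 18 in NP and 18 of the difference, none of them called, and between tissues for Timp2, Adamts2 and Adamts14. Under MDL-800 in NP against AF, Adamts2 turned to -0.025 without scaling, -0.018 with array weights, -0.002 without NP library 20 and -0.032 without AF library 30, in a range of -0.032 to 0.13 over the libraries left out. Timp2 turned there to -0.015 without scaling and -0.085 without AF library 30, in a range of -0.085 to 0.226, and in vehicle to 0.057 with upper-quartile scaling and 0.04 with GC correction. Adamts14 turned to 0.16 with quantile normalization in the tissue comparison under MDL-800 and to -0.10 with GC correction for treatment in NP. The cause was not tested.

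The numbers that NP and AF columns share did not meet the rule for pairing: over 8 same-numbered pairs the correlation of deviations ran from -0.178 to 0.285, 3 were over 0.1, and 2 of the 8 NP libraries correlated best with their own number. With a replicate block for these numbers, 4 genes were called higher and 24 lower in vehicle (14 lower of the 20 measured in both tissues, beside 20.6% higher and 33.0% lower of all genes), 2 and 21 under MDL-800 (13 lower of the 20, beside 18.3% and 29.7%) and 0 for the difference between tissues, and Timp2 under MDL-800 turned to -0.011; Mmp11 was then called in vehicle, and Mmp15, Adamts14 and Timp3 were no longer called under MDL-800. Under MDL-800 the tissues shared only the numbers 36, 37 and 39, so the block fit there rests on those pairs alone. Calls lost in it cannot be told apart from an effect of fewer libraries. Leaving out the NP library of each group with the most neutrophil markers, chosen after seeing the data, left 0 called for treatment in NP. Over all genes, 41 were called for treatment in NP, 4 to 70 under other settings and 2 to 189 with a single library left out, the highest without NP vehicle library 6. With 5 libraries a group and values near those of 1 fragment, the precision for the low genes was limited.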
